A study of Arabidopsis thaliana with 2 samples.

Results

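FOLB3 (AT3G21730) is an Arabidopsis thaliana gene for a dihydroneopterin aldolase, and 1 of the 270 splicing events in 4 deposited tables maps to it. It was found by its gene identifier in all 4 tables. The exon skipping table, with 19 events in 15 genes, held its single row, and the tables of intron retention and of alternative splice sites at either intron end held 0 rows for it. The compared groups were lefko mutant embryos and wild-type embryos, with 1 sample each, both of the Col-0 ecotype and both taken between the globular and the heart stage by dissection from siliques of plants grown to maturity under long days. The mutant sample is labelled lefko1, while the series title and the table columns say lefko2; it is the only mutant sample and is called the lefko mutant here. The labels name neither the mutated gene, the allele, nor how many plants or embryos went into a sample. With 1 sample per genotype, there is no replicate check of any difference below.

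Folate is the carrier of one-carbon units for making nucleotides and methionine, and plants assemble it from a pterin part, p-aminobenzoate and glutamate. Dihydroneopterin aldolase works in the cytosolic pterin branch, where it cuts the side chain of dihydroneopterin to give hydroxymethyldihydropterin, which is then joined to p-aminobenzoate in mitochondria. Arabidopsis has several genes for this step, FOLB1, FOLB2 and FOLB3. Folate supply is known to be needed for embryo growth in this plant, since some mutants of folate synthesis genes arrest as embryos.

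The FOLB3 event is a cassette exon of 205 bases on the minus strand of chromosome 3 (TAIR10.1, 7660080 to 7660284). It is the middle of 3 exons and lies wholly in coding sequence. The RefSeq annotation gives FOLB3 2 transcripts, and this exon is what separates them in splicing: AT3G21730.1 holds it, with 3 exons and 483 coding bases for 160 residues, and AT3G21730.2 skips it, with 2 exons and 231 coding bases for 76 residues. The exon supplies 42.4% of the coding sequence of AT3G21730.1. Both exon and skipping intron were annotated in 9 of the 19 listed exon skipping events, this one included, and the exon was an internal coding exon in 4 of the 19. It is shown here whole, because it is the sequence whose use differed, with 20 intron bases on each side (chr3:7660060-7660304, minus strand, 5′ to 3′, RefSeq TAIR10.1). The capitals mark the AG that ends the intron before it and the GT that starts the intron after it.
FOLB3 cassette exon: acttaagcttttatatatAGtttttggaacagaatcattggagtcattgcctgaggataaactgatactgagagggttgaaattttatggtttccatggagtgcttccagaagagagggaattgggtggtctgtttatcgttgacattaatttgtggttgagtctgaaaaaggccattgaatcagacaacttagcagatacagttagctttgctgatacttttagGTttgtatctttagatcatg

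**Figure D1:**
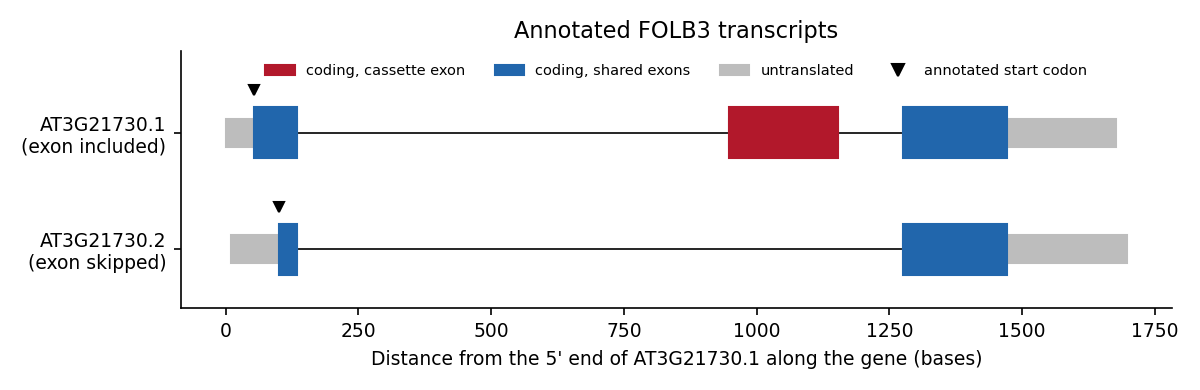
The annotated FOLB3 transcripts, drawn 5′ to 3′ with distance from the start of AT3G21730.1 in bases on the x axis. Tall boxes are coding, low grey boxes untranslated, lines introns and triangles annotated start codons. AT3G21730.1 carries the 205-base cassette exon in red, and AT3G21730.2 joins exon 1 to exon 3 and starts further downstream.

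A read can tell the 2 forms apart by its junction. The junctions are given with 15 bases from each side, the part in capitals coming from the exon further 3′; the first pair is made by inclusion and the last one by skipping.
Exon 1 to cassette exon: ttttttgtgcaacagTTTTTGGAACAGAAT
Cassette exon to exon 3: tgctgatacttttagGCTAGTGAAGAAAAT
Exon 1 to exon 3: ttttttgtgcaacagGCTAGTGAAGAAAAT

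The exon length is not a multiple of 3 (the remainder is 1), so leaving it out moves the reading frame. The annotation handles this with separate start codons in exon 1, which lie 47 bases apart and in different frames, and both frames meet again in the same 196 coding bases of exon 3. Read from the upstream start, a transcript without the exon met a stop codon at base 3 of exon 3, after 28 residues. Read from the downstream start, a transcript with the exon met a stop inside the exon, after 22 residues. Which start codon the ribosome uses was not measured. The start codons are shown in capitals with their surroundings, followed by the skipping junction once more with the stop codon of the upstream frame in capitals.
Upstream start, used in AT3G21730.1: aacccaATGcatagctcactg
Downstream start, used in AT3G21730.2: acgactATGtgttctctcatt
Skipping junction, stop of the upstream frame: ttttttgtgcaacaggcTAGtgaagaaaat

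The cassette exon was included in a larger share of reads in lefko mutant embryos than in wild-type embryos. Inclusion was 95.5% of 3814 event reads in the mutant (exact Clopper-Pearson 95% interval 94.8 to 96.2) and 68.8% of 298 event reads in the wild type (63.2 to 74.0). The event is in the table because it passed the authors' threshold, so it was selected on the same reads as these shares, which are a description and were not tested again. The share is inclusion reads over inclusion plus skipping reads with no correction for the unequal length of the forms. The intervals cover counting error only, since no label mentions molecular identifiers.

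Each genotype's reads are deposited as 3 numbers joined in a cell, and no label says whether they are cultures, libraries or runs. In the mutant the first value had 1205 inclusion and 72 skipping reads, the second 1191 and 62, and the third 1247 and 37. The wild-type values held 68 inclusion and 33 skipping reads, 91 and 44, and 46 and 16. The mutant shares were thus 94.4%, 95.1% and 97.1%, against 67.3%, 67.4% and 74.2% in the wild type. All 3 mutant shares lay above all 3 wild-type shares, and no interval of a mutant value reached one of a wild-type value. Such separation, in either direction, held for 71.5% of all 270 listed events and for 68.4% of the exon skipping events, so it does not set FOLB3 apart from the rest. Within the mutant the third value stood above the first, with intervals of 96.0 to 98.0 and 93.0 to 95.6 that did not overlap, while the 3 wild-type intervals overlapped one another.

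**Figure D2:**
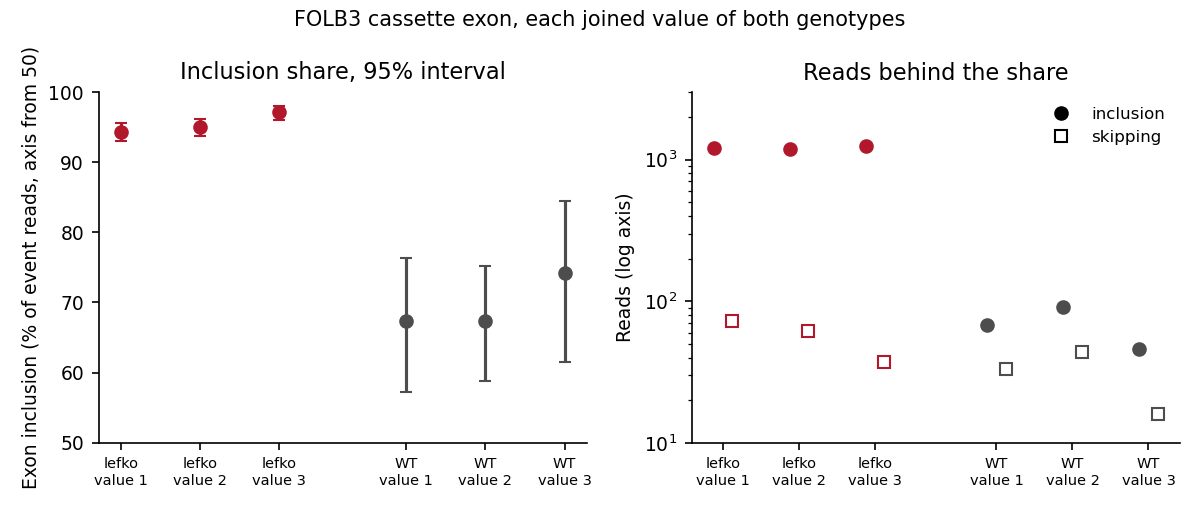
FOLB3 by joined value, lefko mutant left and wild type (WT) right. The left panel gives the inclusion share in % of event reads with exact 95% intervals, on an axis that starts at 50; the right panel gives inclusion reads (filled circles) and skipping reads (open squares) on a log axis. The mutant shares run from 94.4% to 97.1%, all above the wild-type shares, and the mutant has more reads of both kinds in sum.

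In odds, the mutant had 21.3 inclusion reads for each skipping read and the wild type 2.20. The log2 odds ratio, which is the same whatever the lengths of the forms, was 3.27 (95% interval 2.86 to 3.69, counting error only, with 0.5 reads added to each count). The authors' deposited table lists both the p-value and the false discovery rate (FDR) of this event as 0, as it does the p-value of 4 of the 19 exon skipping events. The listed events were 0.596% of the 3187 exon skipping events that the authors' p-values and FDRs imply were tested.

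FOLB3 also differed from most listed genes in how many reads it had. All event reads together were 12.8 times as many in the mutant as in the wild type (exact conditional 95% interval 11.4 to 14.4). The intervals of read ratios cover counting error only. Leaving out 1 joined value at a time gave ratios of mean event reads from 10.8 to 15.6, a range wider than that interval. Inclusion reads numbered 3643 in the mutant and 205 in the wild type, a ratio of 17.8 (15.4 to 20.6). Skipping reads numbered 171 in the mutant and 93 in the wild type, a ratio of 1.84 (1.42 to 2.39). The lower skipping share of the mutant, 4.48% against 31.2% in the wild type, therefore stood beside a higher number of skipping reads, not a lower one. Library totals were not analysed here, so these are ratios of reads and not of expression.

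The median ratio over the 227 gene identifiers with an event was 0.471, each taken at its event with the most reads, and FOLB3 was 27.2 times that median. Gene identifiers with a ratio above 10 were 5.29% of the 227. They numbered 12, and FOLB3 was the last of them, in rank 12. In bulk samples like these, more cells of a type and more RNA per cell cannot be told apart. The reads were spread evenly over the 3 mutant values, which held 1277, 1253 and 1284 FOLB3 reads, against 101, 135 and 62 in the wild-type values. The third wild-type value was the lowest at FOLB3, with 20.8% of its wild-type reads, and it was also low elsewhere, with a median of 22.7% over 187 other gene identifiers with at least 20 wild-type reads and without junctions over 10 kb.

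Most genes of a maturing seed list that had a listed event also had high read ratios in the same samples. The list was written with earlier results of these data known. A gene has a ratio only where an event passed the authors' threshold, which many reads in either genotype make easier. The counts below are thus a description and were not tested. Of 22 genes on a list of storage proteins, oleosins, dehydrins and late embryogenesis proteins, 6 had a listed event and 16 had none, beside 0.929% of the 22814 protein-coding genes with an annotated intron. That share covers only genes with an intron, whereas the seed and embryo lists here were not filtered for introns. The ratio was above 10 for 5 of the 6, with a median of 14.9 over the 6 and a range from 0.514 for the dehydrin gene ERD14 to 23.7 for the dehydrin gene RAB18, each gene taken at the event with the most reads under its own identifier. Their summed reads ran from 8081 to 11747 over the 3 mutant values and from 411 to 660 over the 3 wild-type values. The cruciferin gene CRA1 had a ratio of 15.1 in this count. An event listed under MYA2 also overlaps CRA1. It had 2243, 8112 and 20021 reads in the mutant values and 81 reads in the wild type, a ratio of 375. Taken as a ratio of mean reads per joined value, it was 192 without the third mutant value. With that event in place of its own for CRA1 the median of the 6 was 16.4, a choice of event compared after the data had been seen. Some of these ratios, those of CRA1, PAP85 and ERD14, come from junctions that span more than 10 kb, whereas the widest gap at FOLB3 was 813 bases. Of the 16 genes on a young embryo list, such as LEC1, WOX2 and STM, 0 had an event. At a share of 0.929% over all protein-coding genes with an annotated intron, this says nothing of that list. Of 13 endosperm and seed coat genes 1 had an event, STK, with a ratio of 0.262. Tables of splicing events do not give levels for genes without an event, so the labelled tissue could not be checked against its markers, and the part of the seed maturation genes in the FOLB3 result was not tested.

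**Figure D3:**
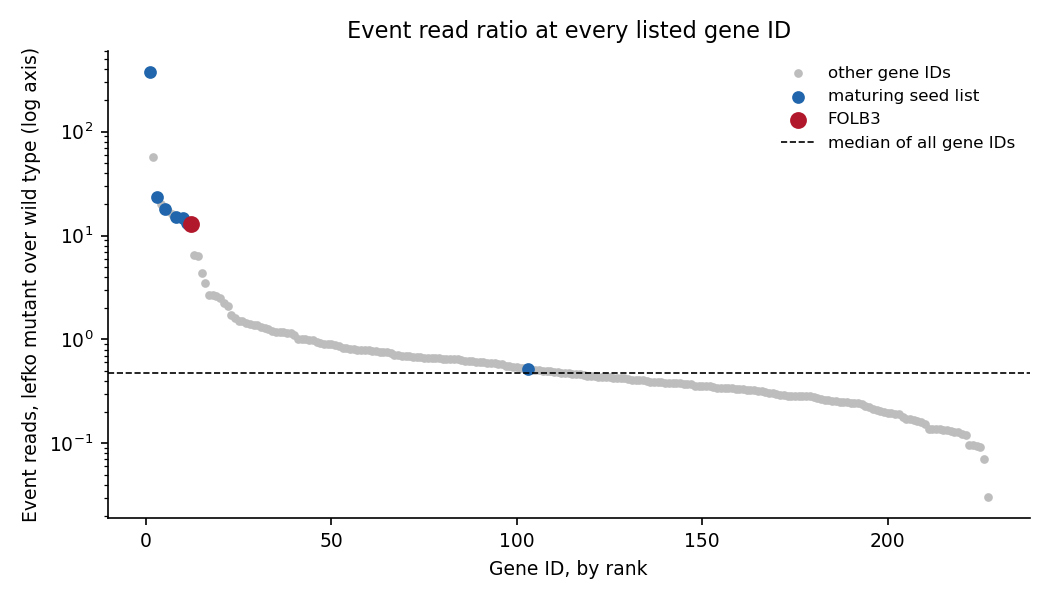
Event reads in the lefko mutant over those in the wild type at every listed gene identifier, ranked, on a log axis. The dashed line is the median of 0.471; FOLB3 in red stands in rank 12 at 12.8, beside the maturing seed list in blue, where the topmost point is the event listed under MYA2 that overlaps CRA1. ERD14 is the blue point near the median.

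The genes closest to FOLB3 by read ratio were PAP85, M17 and AT3G19920. PAP85, a cupin gene of the vicilin-like storage proteins, had 754 mutant and 57 wild-type reads, a ratio of 13.2 (10.1 to 17.6). M17, which encodes a late embryogenesis abundant protein, had 485 mutant and 33 wild-type reads, a ratio of 14.7 (10.3 to 21.6). AT3G19920 had 1377 mutant and 93 wild-type reads, a ratio of 14.8 (12.0 to 18.5). The intervals of all 3 overlap that of FOLB3, so their order among one another lies within counting error. Their splicing events were of other kinds, with differences in the share of the longer form, mutant minus wild type, of -50.8 points for PAP85, -7.49 points for M17 and -15.9 points for AT3G19920. Of these 3, each at its event with the most reads, only AT3G19920 had joined values that separated the genotypes. Another M17 event, with 188 mutant and 13 wild-type reads, also separated them, and the remaining M17 event did not. At PAP85 the joined values ran from 19.0% to 62.9% in the mutant and from 37.5% to 100% in the wild type. The M17 event with the most reads rests on 1 wild-type skipping read and the AT3G19920 event on 2.

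From the highest signed value down, the FOLB3 log2 odds ratio ranked 4 among the 19 exon skipping events and its difference of 26.7 percentage points ranked 5. By size, whatever the sign, the ranks were 5 for the log2 odds ratio and 9 for the difference. Inclusion was higher in the mutant in 73.7% of these events, so the direction at FOLB3 was the usual one in the table. The 19 events come from 15 gene identifiers, so this share and the ranks count some genes, such as KAT5 and APC11, more than once. The closest log2 odds ratios were those of KAT5, a thiolase gene of fatty acid breakdown, and APC11, named for a subunit of the anaphase-promoting complex. KAT5 is listed with overlapping exons of 199 and 107 bases that share one end and the same skipping reads, so they are not separate evidence. The 199-base exon was included in 96.4% of 475 mutant reads and 71.0% of 1753 wild-type reads, a log2 odds ratio of 3.42, and the 107-base exon gave 3.55. APC11 included its 655-base exon in 96.4% of 28 mutant reads and 68.4% of 57 wild-type reads, a log2 odds ratio of 3.10. That value rests on 1 mutant skipping read, and the other 2 APC11 events in the table, which share the same skipping reads, gave 2.55 and 2.45, below the FOLB3 interval.

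The likeness did not extend to the reads. KAT5 had 0.271 times as many reads in the mutant as in the wild type at the 199-base exon (0.244 to 0.300), and APC11 0.491 times (0.301 to 0.785), against 12.8 at FOLB3. Over the 15 gene identifiers of the exon skipping table, 3 had more reads in the mutant and 2 had more than 10 times as many, FOLB3 and the event listed under MYA2. One end of that event lies in CRA1, more than 10 kb from the other.

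**Figure D4:**
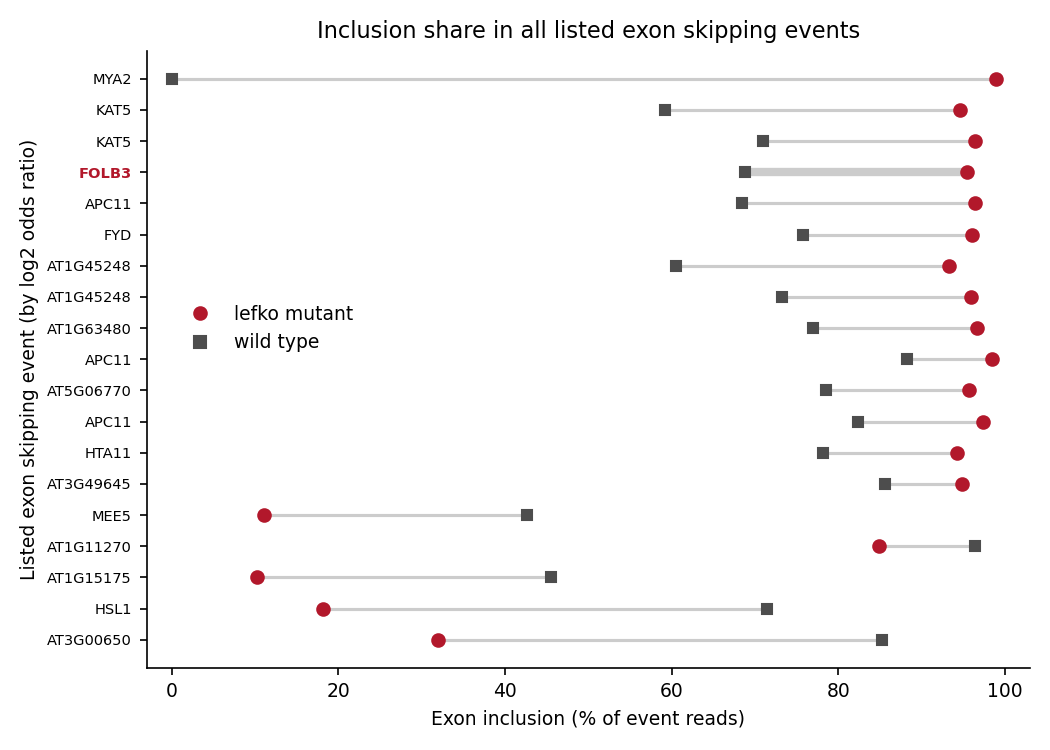
Inclusion share, in % of event reads, for all 19 listed exon skipping events, ordered by log2 odds ratio from highest at the top. Red circles are the lefko mutant and grey squares the wild type. FOLB3, in bold, has 95.5% in the mutant against 68.8% in the wild type and sits between KAT5 and APC11.

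The splice sites around the FOLB3 exon had scores near the middle of those of the 133345 annotated nuclear introns. Each score sums base weights per position, taken from these introns. The donor of exon 1 scored 7.77 bits (percentile 64.1) and the donor of the cassette exon 7.63 bits (percentile 60.9). The acceptor of the cassette exon scored 8.96 bits (percentile 49.0) and that of exon 3, which joins exon 1 in the skipping form, scored 9.28 bits (percentile 52.9). The sites used in both forms are shown here, with the GT and the AG in capitals; those of the cassette exon are in the sequence given first.
Donor of exon 1: tgtgcaacagGTattctctt
Acceptor of exon 3: aataatgctattattggcAGgctagtgaag

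The introns beside the exon were unequal in length. The intron before it was 813 bases long, at percentile 98.6 of annotated introns, and the intron after it 123 bases, at percentile 62.9. The intron after it was also poor in G and C, at 23.6% (percentile 3.33), and the one before it had 29.6% (percentile 23.7). The exon itself was long for an internal coding exon, at percentile 79.9, where the median length was 115 bases, and had 39.0% G and C (percentile 15.4). These features are those of the reference sequence and are the same in both genotypes as far as the labels say.

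The other genes for the same enzyme carry a counterpart of the exon but had no listed event. In FOLB1 the middle coding exon has 184 bases (chromosome 3, 3715369 to 3715552), and 143 of its 184 aligned bases, 77.7%, matched the FOLB3 exon. In FOLB2 the counterpart is the first coding exon, with 197 coding bases (chromosome 5, 25276384 to 25276580), and 146 of 194 aligned bases, 75.3%, matched. The annotated transcripts of FOLB1 (146 residues) and FOLB2 (131 residues) all hold it. No window of 30 bases lying within a FOLB3 exon, 654 in all, had an exact copy elsewhere in the genome. In the annotation 0 other genes overlap FOLB3. Windows across a junction and copies with mismatches were not searched, so the placement of the junction reads themselves was not tested.

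Of the 16 genes on a list of folate synthesis, 1 had a listed event, which was FOLB3. The 15 without one include the cyclohydrolase that opens the pterin branch, the other aldolases, and the bifunctional enzymes that couple pterin and p-aminobenzoate. They also include the p-aminobenzoate enzymes ADCS and ADCL, dihydrofolate synthase, the folylpolyglutamate synthases DFB, DFC and DFD, and the dihydrofolate reductase-thymidylate synthases. Of 21 genes that use, move or break down folate, such as MTHFR1, SHM1 and FOLT1, 0 had an event. All 37 genes have an annotated intron, and 0.929% of the 22814 protein-coding genes with an intron were listed in any table. The count of 1 of 37 was not tested against that share. The absence of a listed event does not show that such a gene was spliced alike in both genotypes.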

How the data were processed

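Per the submitters' processing notes, reads were mapped with HISAT2 2.0.4 to TAIR10; the event caller is not given in the sources used here, nor is the statistic behind its p-values. The deposited tables join 3 whole numbers per cell (headed IC and SC, read as counts of inclusion and skipping reads), beside the p-value and FDR that the authors deposited; the highest FDR is 0.0500. The 3 numbers were summed, so each genotype is 1 sample and no model of replicates was run. Starts, counted from 0 in the tables, are printed counted from 1; chromosome accessions equal those of the RefSeq TAIR10.1 assembly. Wild-type events had 4 to 3739 reads and mutant events 3 to 30376. Intervals of shares and read ratios were computed with SciPy 1.17.1, and that of the log2 odds ratio by a normal approximation. Only the share intervals and the log2 odds ratio values were tested on simulated data. Identities came from Biopython 1.88 alignments. The number of tested events is the median of FDR times rank over p, over events with a p-value above 0. Among exon skipping events 14 were within 1% of it, and 4 of the 19 had a p-value of 0 and could not be used. Named genes are FOLB3, genes of the lists with an event, and the 3 events or genes nearest in log2 odds ratio and in read ratio. Members and lists were chosen with earlier results of these data known.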

Additional observations from a re-analysis of the deposited data

How the results depend on the processing

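No paired analysis was possible because each genotype is 1 sample and the labels give no replicate numbers. Leaving out each joined value in turn gave share differences of 25.6 to 28.1 points, log2 odds ratios of 3.02 to 3.48 and ratios of mean event reads of 10.8 to 15.6, mutant over wild type. The unweighted mean of the 3 shares gave a difference of 25.9 points, and other pseudocounts left the log2 odds ratio at 3.27. With inclusion reads halved, since inclusion has 2 junctions and skipping 1, inclusion was 91.4% in the mutant and 52.4% in the wild type, a difference of 39.0 points. The read ratio was 17.8 for inclusion reads alone, 1.84 for skipping reads alone and 27.2 after division by the median ratio. By read ratio FOLB3 ranked 11 when each gene was taken at its least covered event, and 7 of 207 when junctions spanning more than 10 kb were left out. By log2 odds ratio it ranked 4 of 16 exon skipping events with at least 20 reads in each genotype. It was the only folate gene among events with a p-value at or under the median of its table. The wild-type share rests on 298 reads.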
